A study of Mus musculus with 18 samples.

Results

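Protein-coding Hox genes, 38 of the 39 in the table, were followed in 18 bulk RNA-seq libraries of mouse embryonic stem cells (mESCs) and of the embryoid bodies (EBs) grown from them. They were taken by symbol, Hoxa, Hoxb, Hoxc or Hoxd followed by a number, from a count table that holds 21974 protein-coding genes. On GRCm38, 10 lie in the Hoxa cluster on chromosome 6 (52162417 to 52260880), 10 in Hoxb on chromosome 11 (96194316 to 96368256), 9 in Hoxc on chromosome 15 (102921103 to 103036852) and 9 in Hoxd on chromosome 2 (74668310 to 74765142). The mESCs were ES-E14TG2a cells kept in serum with leukemia inhibitory factor (LIF). IκBα-KO clones had been edited by Cas9 with a pair of gRNAs against exon 1 of Nfkbia, the gene of the NF-κB inhibitor IκBα, and IκBα-WT clones had received scrambled gRNAs. There were 3 independent clones of each genotype. EBs are aggregates that differentiate in suspension, here in serum medium without LIF that held ascorbic acid, transferrin and alpha-monothioglycerol, and they were sampled at 48 hr and 96 hr. Each EB stage held 6 libraries, by the labels 3 of each genotype, which the table names by clone codes (D4, E2, E3, E14, H7 and H9). The codes do not give the genotype, so EB libraries were compared by stage and the genotype difference is part of their spread.

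Hox genes encode homeodomain transcription factors that give cells their position along the head-to-tail axis. Members with the same number in different clusters (a paralog group, 1 to 13) descend from 1 ancestral gene. Groups 1 to 3 lie at the end of each cluster that is used first and in the most anterior tissue, such as the hindbrain, and groups 9 to 13 at the end used last and most caudally, in the trunk, tail and limbs. In pluripotent cells the clusters are covered by Polycomb marks and transcribed little, and Wnt, Fgf and retinoic acid signals open them from the group 1 end during gastrulation.

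Most members were close to the limit of detection in every library. The libraries held 28287582 to 40904247 counts, so 1 CPM (counts scaled to a common library total) stood for 27.02 to 40.77 counts. Between 23 and 31 members had any count in an mESC library, 25 to 30 in a 48 hr library and 23 to 35 in a 96 hr library. Only 2 or 3 members reached 1 CPM in an mESC library, 2 to 4 at 48 hr and 0 to 9 at 96 hr. The highest number was that of the 96 hr library of clone E14, which stood apart from the other 5 in many members. Most calls that rest on it are also given without it, and medians over members are not. In the mESCs Nfkbia was at 34.2, 35.1 and 25.3 CPM in the IκBα-WT clones and at 10.2, 9.44 and 10.1 CPM in the IκBα-KO clones. The stage labels were checked with marker lists. Markers of naïve pluripotency summed to 2297 to 3252 CPM in mESCs, 412 to 1268 at 48 hr and 291 to 769 at 96 hr.

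**Figure D1:**
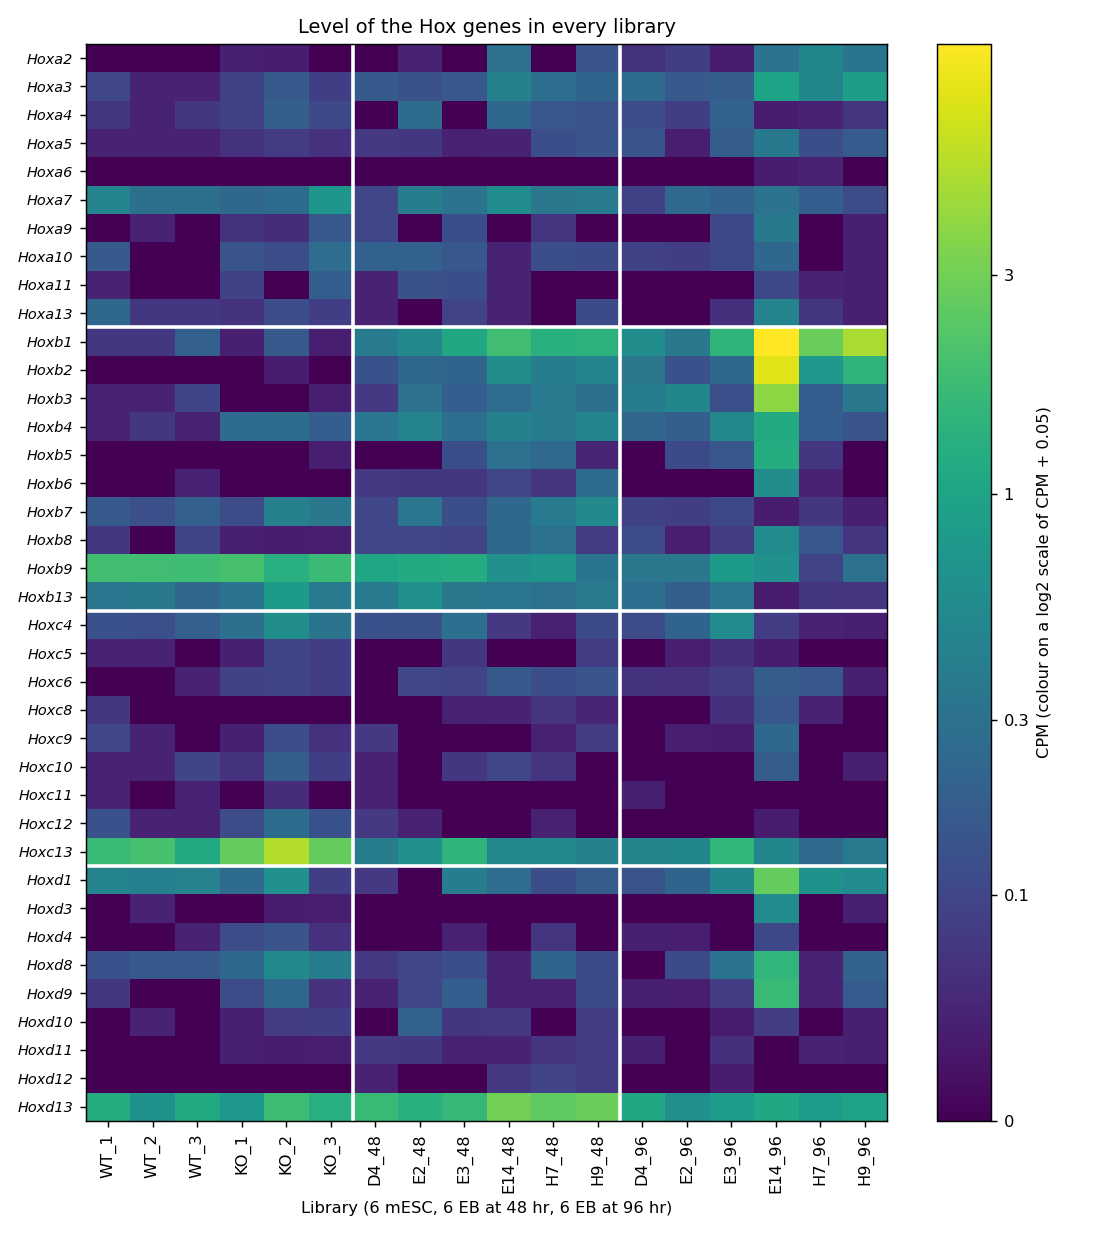
Level of each of the 38 Hox genes (rows, by cluster and paralog group) in each of the 18 libraries (columns), as CPM on the log2 color scale shown. Most rows are near 0 throughout, a few genes carry the signal, and the 96 hr library of clone E14 has 9 members at 1 CPM or above.

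The members with the highest levels per kilobase of exon changed places between stages. In mESCs the order by median level was Hoxc13 (0.949 CPM per kilobase), Hoxb9 (0.703), Hoxd13 (0.478), Hoxd1 (0.239) and Hoxb13 (0.159). At 48 hr it was Hoxd13 (0.840), Hoxb1 (0.529), Hoxb9 (0.345), Hoxc13 (0.219) and Hoxb7 (0.187). At 96 hr it was Hoxb1 (0.924), Hoxd13 (0.371), Hoxd1 (0.287), Hoxc13 (0.201) and Hoxb2 (0.159). Reads were counted over exons without a stated strand setting, and 15 of the 38 members share exon bases with another annotated gene, so their reads cannot be told apart from that gene's. The other 23, among them Hoxb1, Hoxb4, Hoxb9, Hoxb13, Hoxc13, Hoxd1 and Hoxd13, share none.

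The stretch just upstream of a gene's start is shown for 4 members that stand at a cluster's end or that were called between genotypes. RefSeq windows of 250 bases before the start (GRCm38.p6) were matched for 22 of the 38 members, in 24 windows. All 4 are on the plus strand: Hoxb1 at chr11:96365508-96365757, Hoxb4 at chr11:96318017-96318266, Hoxd1 at chr2:74762730-74762979 and Hoxd13 at chr2:74667975-74668224. Capitals mark matches, on either strand, to AGGTCA (a retinoic acid receptor binding motif), TTTATG (Cdx), AGGTGT (T-box) or TGATNNAT (Pbx with Hox).
Hoxb1: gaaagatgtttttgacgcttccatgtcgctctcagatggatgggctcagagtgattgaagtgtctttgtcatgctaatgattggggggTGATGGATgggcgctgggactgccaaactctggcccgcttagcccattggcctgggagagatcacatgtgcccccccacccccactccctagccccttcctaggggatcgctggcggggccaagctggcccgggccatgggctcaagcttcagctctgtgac
Hoxb4: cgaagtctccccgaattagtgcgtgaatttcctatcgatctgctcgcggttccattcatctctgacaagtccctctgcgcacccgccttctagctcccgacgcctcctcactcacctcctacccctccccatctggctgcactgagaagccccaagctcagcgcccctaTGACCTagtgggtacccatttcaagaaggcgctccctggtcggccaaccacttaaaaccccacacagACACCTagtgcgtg
Hoxd1: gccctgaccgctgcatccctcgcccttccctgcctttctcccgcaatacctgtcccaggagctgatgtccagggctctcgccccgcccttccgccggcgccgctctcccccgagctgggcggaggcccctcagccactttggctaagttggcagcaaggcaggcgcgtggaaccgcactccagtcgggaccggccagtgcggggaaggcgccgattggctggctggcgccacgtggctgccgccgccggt
Hoxd13: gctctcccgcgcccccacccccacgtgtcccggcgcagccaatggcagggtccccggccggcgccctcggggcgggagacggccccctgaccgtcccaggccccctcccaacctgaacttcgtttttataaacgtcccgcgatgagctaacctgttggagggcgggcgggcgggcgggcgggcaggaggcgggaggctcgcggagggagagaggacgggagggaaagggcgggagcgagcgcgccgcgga
The Hoxb1 window, with 7 CpG pairs, held 1 TGATNNAT match. The Hoxb4 window, with 14, held AGGTCA and AGGTGT on the reverse strand, and the Hoxd1 and Hoxd13 windows, with 24 and 31 CpG pairs, held none of the 4. Over the 24 Hox windows the median was 12.5 CpG pairs, beside 6 over all 32851 windows. AGGTCA was in 25% of the Hox windows and 14% of all, TTTATG in 20.8% and 10.8%, AGGTGT in 12.5% and 11.8%, and TGATNNAT in 16.7% and 7.68%. These are matches of letters and say nothing of binding.

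The comparison of 96 hr EBs with mESCs asked which Hox genes had changed after 96 hr of differentiation. Of the 35 members with at least 10 counts over the 18 libraries (Hoxa6, Hoxc11 and Hoxd12 had fewer), 10 were called higher, where 11.2% of all genes tested were, and 5 lower, where 9.65% were. A call is an adjusted p under 0.05 with an absolute log2 fold change over 1. Each of the 10 Hoxb members was called, 7 higher and 3 lower. In Hoxa 3 of 9 tested members were higher and none lower, in Hoxc 2 of 8 were lower, and in Hoxd none of 8 was called in either direction (none had an unadjusted p under 0.05 in edgeR's test, and DESeq2 called none of the 6 to which it gave an adjusted p). By paralog group, 5 of 7 members in groups 1 to 3 were higher, 5 of 14 tested in groups 4 to 8 were higher and 1 lower, and in groups 9 to 13 none of 14 was higher and 4 were lower. Of the 5 in groups 1 to 3 only Hoxb1 shares no exon bases with another gene. The median log2 fold change was 4.03 in groups 1 to 3, 0.58 in groups 4 to 8 and -0.51 in groups 9 to 13, beside -0.0075 over all genes tested. Of the 10 called higher 6, Hoxa2, Hoxb2, Hoxb3, Hoxb5, Hoxb6 and Hoxb8, had 1 to 8 counts over the 6 mESC libraries. These 6 passed the filter only with the EBs, so that such counts describe the members and are no support for a direction. The same holds for the medians, as the 4.03 is the value of Hoxa2, which had 2 counts in mESCs. In bulk RNA, more cells that transcribe a gene cannot be told apart from more RNA per cell.

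**Figure D2:**
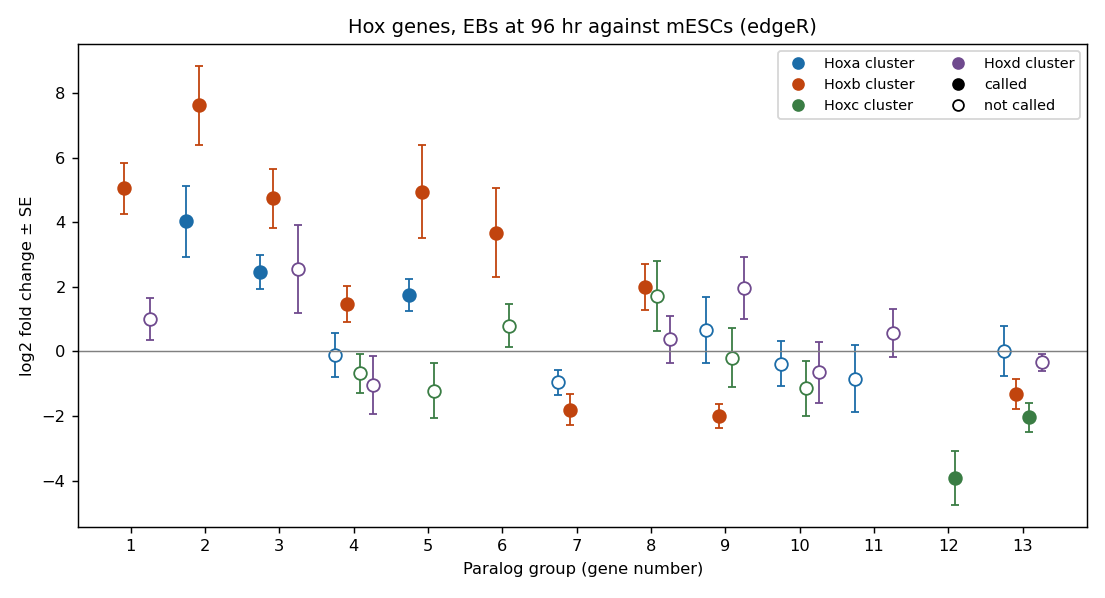
Log2 fold change of 96 hr EBs against mESCs with its standard error (vertical axis) for each tested Hox gene by paralog group (horizontal axis), in a color for each cluster. Members of groups 1 to 3 lie above 0, those of groups 9 to 13 lie mostly below it, and Spearman's rho over the 35 members is -0.61. Members that passed the filter only with the EBs are among the 35, so the rho describes them and is no support for a direction.

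Hoxb1, which patterns the hindbrain around rhombomere 4, had the highest median level per kilobase at 96 hr. Hoxb1 (chromosome 11, 96365752 to 96368256) was at 0.0678, 0.0656 and 0.198 CPM in IκBα-WT mESCs and 0.0293, 0.172 and 0.0273 in IκBα-KO mESCs. At 48 hr it was at 0.374, 0.539, 1.11, 1.85, 1.35 and 1.41 CPM, and at 96 hr at 0.607, 0.360, 1.47, 9.33, 2.82 and 4.76 CPM, in the order of clones D4, E2, E3, E14, H7 and H9. Each EB library lay above each mESC library. It had risen by 48 hr (3.51 ± 0.77, adjusted p = 0.0021) and was higher by 5.05 ± 0.78 at 96 hr (adjusted p = 5.3e-05). Both calls held without each library in turn, with log2 fold changes down to 3.30 and 4.37.

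Hoxb2, which acts with Hoxb1 in the hindbrain, was nearly silent in mESCs and is described here, as are the other members outside the fixed rule, after its values were seen. It had a single count in 1 of the 6 mESC libraries (IκBα-KO clone 2). At 48 hr it was at 0.136, 0.236, 0.222, 0.615, 0.407 and 0.481 CPM, and at 96 hr at 0.347, 0.139, 0.236, 7.26, 0.761 and 1.47 CPM, in the same order of clones. Clone E14 at 96 hr was the highest of all, followed by clone H9, and each EB library was above each mESC library. Scaled to library totals, the 96 hr libraries held 358 times the mESC counts (95% counting interval 63.9 to 14184, from 376 against 1 count), and the 48 hr libraries 70.0 times (12.1 to 2807). Clone E14 held 277 of the 376 counts, and without it the ratio at 96 hr was 115 (20.2 to 4588). Adjusted p was 0.0053 at 48 hr and 7.4e-05 at 96 hr, and both calls held without each library in turn. As Hoxb2 passed the filter only with the EBs, these p-values describe it and are no support for a direction.

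**Figure D3:**
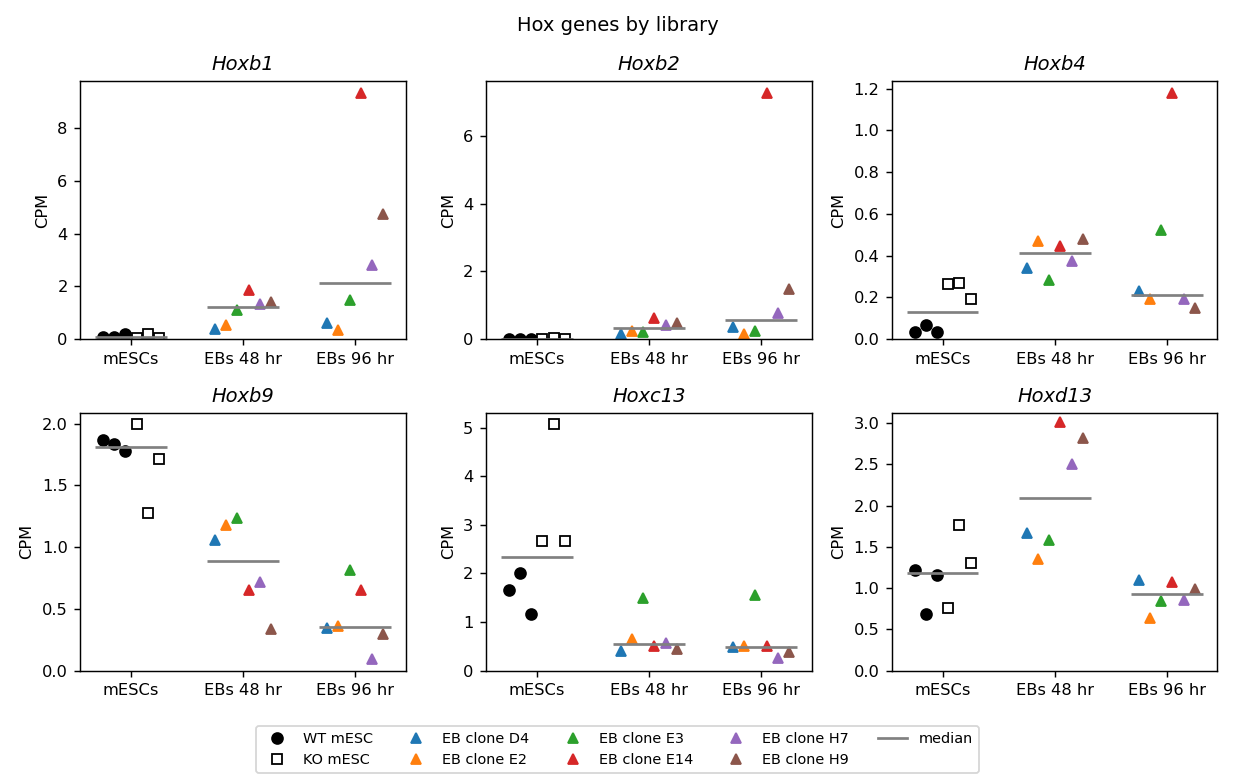
CPM of Hoxb1, Hoxb2, Hoxb4, Hoxb9, Hoxc13 and Hoxd13 in each of the 18 libraries (points), by stage. Hoxb1 and Hoxb2 reach their highest values at 96 hr, Hoxb9 and Hoxc13 in mESCs and Hoxd13 at 48 hr. The highest Hoxb4 value is that of clone E14 at 96 hr, while its median is 0.410 CPM at 48 hr and 0.213 at 96 hr.

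Hoxb3, Hoxa2 and Hoxa3 also rose from very low levels in mESCs. Hoxb3 was at 0.405, 0.499, 0.131, 3.83, 0.190 and 0.359 CPM at 96 hr, above each mESC library (highest 0.0990), with clone E14 far above the others. It was higher by 2.90 ± 0.98 at 48 hr (adjusted p = 0.034) and by 4.74 ± 0.92 at 96 hr (adjusted p = 0.00045), which was 3.26 (adjusted p = 0.00034) without clone E14. The 48 hr call was lost when any of 9 of the 12 libraries was left out (WT_1, WT_2, each IκBα-KO clone, or clones E2, E14, H7 and H9 at 48 hr), with adjusted p 0.0514 to 0.0695. Of Hoxb3's 4251 exon bases 2250 are shared with the antisense gene Hoxb3os, which also overlaps Hoxb2. Hoxa2, needed for the identity of the second pharyngeal arch, was at 0.0578, 0.0832, 0.0262, 0.315, 0.508 and 0.329 CPM at 96 hr, where mESC libraries held 2 counts in all, a ratio of 21.4 (5.60 to 182, adjusted p = 0.006). Hoxa3, needed for thymus and parathyroid, was at 0.260, 0.166, 0.184, 0.996, 0.508 and 0.868 CPM at 96 hr and was higher by 2.46 ± 0.52 (adjusted p = 0.00088). For both, clones E14, H7 and H9 gave the 3 highest values at 96 hr. Hoxb3 and Hoxa2 also passed the filter only with the EBs, so the same limit holds for their p-values.

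In groups 4 to 8 several of the calls rested on single libraries. Hoxb5, Hoxb6 and Hoxb8 also passed the filter only with the EBs, so their p-values are no support for a direction. Hoxb4, known for its effect on blood stem cell expansion, was at 0.231, 0.194, 0.525, 1.18, 0.190 and 0.150 CPM at 96 hr, with clone E14 the highest. At 48 hr Hoxb4 was at 0.285 to 0.481 CPM (median 0.410, beside 0.213 at 96 hr), above each mESC library (highest 0.270). The difference from mESCs at 48 hr was 1.41 ± 0.56 (adjusted p = 0.066). At 96 hr Hoxb4 was higher than in mESCs by 1.47 ± 0.55 (adjusted p = 0.037). That call was lost without any one of 5 libraries, at 0.83 (adjusted p = 0.178) without clone E14 and 1.28 to 1.39 (adjusted p = 0.0574 to 0.0757) without clone E3 or an IκBα-WT clone. Hoxb5 was at 0, 0.111, 0.157, 1.23, 0.0634 and 0 CPM at 96 hr, where clone E14 stood far above the rest, and the ratio to mESCs was 56.2 (9.70 to 2257, from 59 against 1 count). Without that library, which held 47 of the 59 counts, the ratio was 13.9 (2.06 to 596) and the adjusted p went from 0.0096 to 0.066. Hoxb6 was at 0.603 CPM in clone E14, at 0.0317 in H7 and at 0 in the other 4 libraries at 96 hr. Its call (adjusted p = 0.039) was lost without any mESC library or clone E14, and without clone E14 the log2 fold change was 0.14. Hoxb8 (1.99 ± 0.72, adjusted p = 0.031) was at 0.577 CPM in clone E14 and at most 0.159 in the others, and its call was lost without clone E14 (1.07, adjusted p = 0.184) and without WT_2 or any IκBα-KO clone (adjusted p = 0.0564 to 0.0617). Hoxa5, needed for lung and neck vertebrae, was at 0.145, 0.0277, 0.184, 0.367, 0.127 and 0.180 CPM at 96 hr and higher by 1.74 ± 0.50 (adjusted p = 0.0086), a call that held without each library in turn. Hoxb7 went the other way, with 0.0867, 0.0832, 0.105, 0.0262, 0.0634 and 0.0299 CPM at 96 hr, each below the lowest mESC library, and fell by 1.80 on the log2 scale (SE 0.49, adjusted p = 0.0062).

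Without clone E14 at 96 hr the count of members called higher went from 10 to 6 (Hoxa2, Hoxa3, Hoxa5, Hoxb1, Hoxb2 and Hoxb3), where 2521 of 25053 genes were. With it left out, none of Hoxb4, Hoxb5, Hoxb6 and Hoxb8 was called. With edgeR's filterByExpr, a filter that leaves out more low genes, 3 members were higher and 3 lower. Of the 17055 genes tested after it, 2110 were higher and 1506 lower.

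Hoxc13 and Hoxb9, which had the highest median levels per kilobase in mESCs, fell in EBs. Hoxc13, which acts in hair and nails, lies at chromosome 15, 102921103 to 102928814. It was at 1.66, 2.00 and 1.16 CPM in IκBα-WT mESCs and 2.67, 5.08 and 2.67 in IκBα-KO mESCs, with clone 2 the highest of all. It was at 0.408, 0.640, 1.49, 0.513, 0.564 and 0.444 CPM at 48 hr and 0.491, 0.499, 1.55, 0.498, 0.254 and 0.389 at 96 hr, where clone E3 was high at both times and reached into the mESC range. It fell by 1.90 on the log2 scale at 48 hr (SE 0.44, adjusted p = 0.0033) and by 2.04 at 96 hr (SE 0.44, adjusted p = 0.0012), and both calls held without each library in turn. Its cluster neighbor Hoxc12 was counted in each mESC library (0.0328 to 0.270 CPM) and in 1 of 6 libraries at 96 hr, a ratio of 0.0366 (0.000894 to 0.223, from 1 against 26 counts, adjusted p = 0.001). Its fall at 48 hr (adjusted p = 0.023) was lost without IκBα-KO clone 2 (-1.87, adjusted p = 0.068).

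Hoxb9, a thoracic patterning gene at chromosome 11, 96271457 to 96276595, varied little among the mESC libraries. It was at 1.86, 1.84 and 1.78 CPM in IκBα-WT and 2.00, 1.28 and 1.72 in IκBα-KO mESCs, at 1.05, 1.18, 1.24, 0.650, 0.720 and 0.333 at 48 hr and at 0.347, 0.360, 0.813, 0.655, 0.0952 and 0.299 at 96 hr. Each EB library at either time lay below each mESC library. It fell by 1.01 on the log2 scale at 48 hr (SE 0.36, adjusted p = 0.042), a call near both thresholds that was lost without any one of 8 libraries: each IκBα-WT clone, IκBα-KO clones 1 and 3, and clones E14, H7 and H9 at 48 hr (-1.02 to -0.86, adjusted p = 0.0619 to 0.0847). The fall by 2.00 at 96 hr (SE 0.37, adjusted p = 0.00029) held without each library in turn. Hoxb13, which acts in prostate and tail, was at 0.339, 0.361 and 0.231 CPM in IκBα-WT mESCs, 0.323, 0.809 and 0.382 in IκBα-KO mESCs, 0.374, 0.640, 0.348, 0.342, 0.313 and 0.370 at 48 hr and 0.289, 0.194, 0.341, 0.0262, 0.0634 and 0.0599 at 96 hr. Clones E14, H7 and H9 were lowest at 96 hr, and the fall from mESCs by 1.31 (SE 0.46, adjusted p = 0.027) was lost without IκBα-KO clone 2, or clone E14, H7 or H9 at 96 hr (-1.16 to -0.99, adjusted p = 0.0558 to 0.0921).

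The 2 other genes at the group 13 end moved differently. Hoxa13, a limb and hindgut gene, was at 0.237, 0.0656 and 0.0660 CPM in IκBα-WT mESCs, 0.0587, 0.123 and 0.0818 in IκBα-KO mESCs, 0.0340, 0, 0.0950, 0.0342, 0 and 0.111 at 48 hr and 0, 0, 0.0525, 0.472, 0.0634 and 0.0299 at 96 hr, and was called in no comparison. Hoxd13, which shapes digits and the genital tubercle, lies at chromosome 2, 74668310 to 74671599. It was at 1.22, 0.689 and 1.16 CPM in IκBα-WT and 0.763, 1.77 and 1.31 in IκBα-KO mESCs, at 1.67, 1.35, 1.58, 3.01, 2.505 and 2.81 at 48 hr and at 1.10, 0.638, 0.840, 1.07, 0.856 and 0.988 at 96 hr. Its highest values were at 48 hr, above each 96 hr library, and those at 96 hr lay largely within the mESC range. The difference from mESCs at 48 hr was 0.90 ± 0.26 (adjusted p = 0.013), under the fold threshold, which it passed without IκBα-KO clone 2 (1.06) or clone E2 at 48 hr (1.00). The difference at 96 hr was -0.33 ± 0.26 (adjusted p = 0.32).

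The other cluster ends were at low levels. Hoxc4, the group 4 end of its cluster, was at 0.136, 0.131 and 0.198 CPM in IκBα-WT mESCs, 0.293, 0.613 and 0.327 in IκBα-KO mESCs, 0.136, 0.135, 0.285, 0.0684, 0.0313 and 0.111 at 48 hr and 0.116, 0.222, 0.577, 0.0786, 0.0317 and 0.0299 at 96 hr, with clone E3 highest at both EB times. Hoxd1, known from pain-sensing neurons, was at 0.475, 0.427 and 0.462 CPM in IκBα-WT mESCs, 0.264, 0.662 and 0.0818 in IκBα-KO mESCs, 0.0680, 0, 0.412, 0.274, 0.125 and 0.185 at 48 hr and 0.145, 0.222, 0.498, 2.65, 0.666 and 0.569 at 96 hr. Clone E14 was highest at 96 hr. Hoxd1's difference between 96 hr and mESCs was 1.00 ± 0.65 (adjusted p = 0.23).

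The comparison of 48 hr EBs with mESCs, which shares its mESC libraries with that of 96 hr EBs, called 3 of 35 members higher (Hoxb1, Hoxb2 and Hoxb3, where 4.62% of all genes were) and 3 lower (Hoxb9, Hoxc12 and Hoxc13, where 4.95% were). The median log2 fold change was 2.62 in groups 1 to 3, 0.56 in groups 4 to 8 and -0.07 in groups 9 to 13. The 2.62 is the value of Hoxa2, which had 2 counts in mESCs, so these medians too are no support for a direction. The number called higher was 5 without IκBα-KO clone 2, 5 by DESeq2, 8 with only the libraries of the 2 stages in the fit and 10 by limma voom.

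Between 48 hr and 96 hr, 2 members were called higher, Hoxb2 and Hoxd1, where 7.1% of all genes were. Lower were Hoxb7, Hoxb13 and Hoxd13, 3 members, where 4.76% of all genes were. The 48 hr and 96 hr libraries of a clone code deviated together over all genes, and with the clone code as a block 4 members were higher (7.5% of all genes) and 4 lower (7.02%). The added ones were Hoxb1 (1.06, adjusted p = 0.034 with the block and 0.074 without), Hoxd3 (adjusted p = 0.012 and 0.065, counted in no 48 hr library) and, falling, Hoxb9 (-1.06, 0.013 and 0.054). Hoxd13 fell by 1.23 (SE 0.26, adjusted p = 0.0024), the groups did not overlap, and the call held without each library in turn and with the block. Hoxb7 fell by 2.06 (SE 0.49, adjusted p = 0.005) and its call also held without each library in turn. Hoxb13 fell by 1.26 (SE 0.46, adjusted p = 0.049), and the call was lost without any one of 10 of the 12 libraries, all but clones D4 and E3 at 96 hr, with adjusted p up to 0.116.

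The calls of a rise between 48 hr and 96 hr changed with single libraries. Hoxb2 was higher by 2.28 ± 0.77 (adjusted p = 0.034), by 1.37 with the block, and by 0.77 (adjusted p = 0.31) without clone E14 at 96 hr. It also lost its call without clone H9 at 96 hr or clone D4, E2, E3 or H7 at 48 hr (adjusted p = 0.05004 to 0.0676). Hoxd1 was higher by 2.13 ± 0.71 (adjusted p = 0.032), by 1.25 (adjusted p = 0.151) without clone E14 at 96 hr, and lost its call without clone D4, E2, H7 or H9 at 48 hr (adjusted p = 0.0501 to 0.0654). Hoxd3 had no count in any 48 hr library and 23 at 96 hr, 22 of them in clone E14. That was at least 6.47-fold more against a floor of 3 counts over the group. Hoxd3 passed the filter only with the 96 hr libraries, so its p-values are no support for a direction. The number of members called higher was 0 with only the libraries of the 2 stages in the fit or by limma voom, which called 6 lower, and 4 by DESeq2. The number of members called higher was 0 without clone E14 at 96 hr or without clone D4, E2 or H7 at 48 hr, 1 without clone E3 or H9 at 48 hr or H9 at 96 hr, 4 without clone E14 at 48 hr or D4 or E2 at 96 hr, and 6 without clone E3 at 96 hr. Without clone E14 at 48 hr or D4, E2 or E3 at 96 hr, 2043 of 25185, 2030 of 25186, 1958 of 25160 and 2160 of 25084 genes were called higher. The median log2 fold change was 1.84 in groups 1 to 3, 0.12 in groups 4 to 8 and -0.74 in groups 9 to 13, beside -0.0292 over all genes. The 1.84 is the value of Hoxb3, which was 0.36 at the lowest when 1 library was left out. Hoxb3 was at 3.83 CPM in clone E14 at 96 hr, beside at most 0.499 in the others. These medians are not given without that library.

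Groups 1 to 3 made up a larger share of Hox RNA in each 96 hr library than in any mESC library. Of the level per kilobase summed over the 38 members, groups 1 to 3 made up 2.02% to 13.2% in mESC libraries, 11.7% to 31.7% at 48 hr and 28.2% to 72.1% at 96 hr. Groups 9 to 13 made up 67.8% to 76.3%, 44.5% to 70.8% and 16.9% to 47.8%. In groups 1 to 3 only Hoxb1 and Hoxd1 share no exon bases with another gene. At 96 hr the ranges of both shares were apart from those of mESCs in each of the 6 libraries, while at 48 hr they overlapped. The summed CPM of all members was 6.54 to 14.1 in mESCs, 6.02 to 11.2 at 48 hr and 4.52 to 37.02 at 96 hr, where clone E14 was at 37.02 and clones H7 and H9 at 8.02 and 11.4. In clone E14 at 96 hr the Hoxb cluster summed to 24.7 CPM, where the other libraries held 1.97 to 7.19, and Hoxd to 7.68 CPM. The Hoxc cluster had a median of 2.78 CPM in mESCs and 0.763 at 96 hr.

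**Figure D4:**
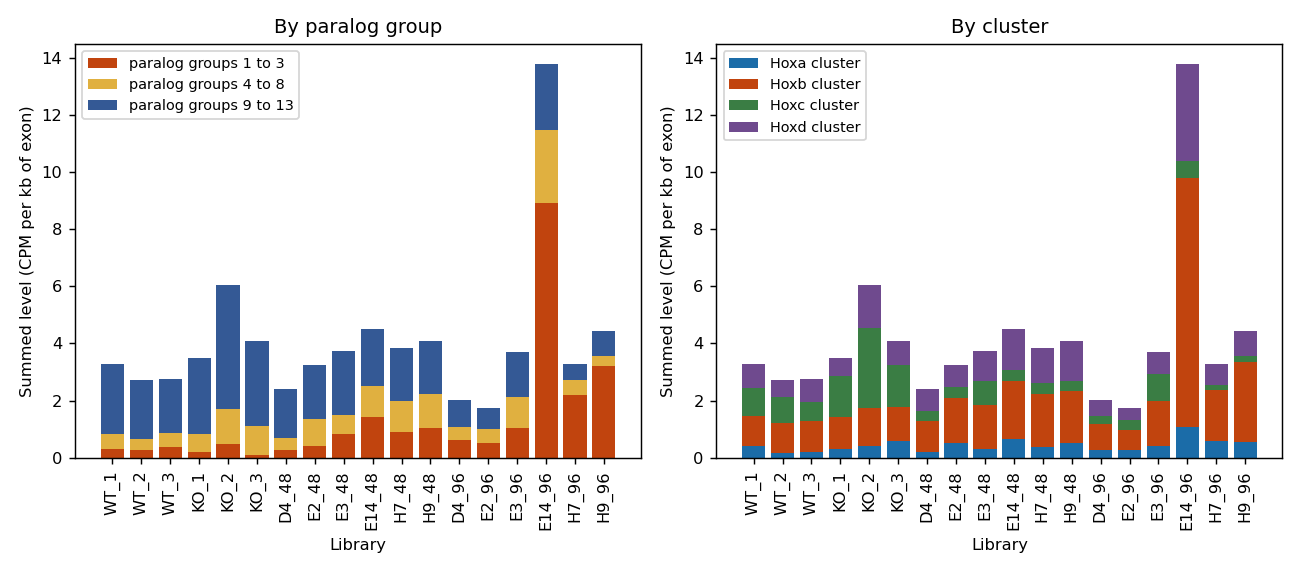
Summed CPM per kilobase of the 38 Hox genes in each of the 18 libraries, stacked by paralog groups (1 to 3, 4 to 8, 9 to 13) and by cluster. Groups 9 to 13 are the largest part in mESCs (67.8% to 76.3%), and groups 1 to 3 make up 28.2% to 72.1% at 96 hr.

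Markers of cell types that arise in EBs moved with the stage and the clone. All 8 streak and mesoderm markers were called higher at 96 hr than in mESCs. Their sum at 96 hr was 24.7, 25.6, 16.5, 1028, 684 and 1065 CPM in clones D4, E2, E3, E14, H7 and H9, beside 6.07 to 11.53 CPM in mESCs. Blood and endothelial markers summed to 527 CPM in clone E14 and 32.5 to 90.5 in the other 96 hr libraries, and endoderm markers to 166 CPM in clone E14 and 3.73 to 37.3 in the others. Neuroectoderm markers were at 56.4 to 217 CPM at 96 hr and 22.1 to 58.7 in mESCs. The fibroblast markers, a check for cells with open Hox clusters, summed to 12.4 to 21.4 CPM in mESCs, 11.3 to 17.5 at 48 hr and 14.7 to 50.2 at 96 hr (clone E14 highest). Of 9 tested 3 were called higher at 96 hr than in mESCs, where 11.2% of all genes were. Fap had counts in 1 of the 6 libraries at 96 hr. Their part in the Hox results was not tested.

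The genes that act with or upon the clusters were taken from lists. Between 96 hr and mESCs 11.2% of all genes tested were called higher and 9.65% lower. Of 8 Pbx, Meis and Pknox genes, TALE homeodomain partners of Hox proteins, 3 were higher at 96 hr than in mESCs and none lower: Meis3 (2.56 ± 0.51, adjusted p = 0.00051), Meis2 (1.92 ± 0.50, adjusted p = 0.0048) and Pbx3 (1.77 ± 0.29, adjusted p = 1e-04). At 48 hr 1 of the 8, Meis2, was higher, where 4.62% of all genes were. Of 12 genes of the caudal growth zone, 9 were higher at 96 hr, led by T (9.49 ± 1.82, adjusted p = 0.0004), the Brachyury factor of nascent mesoderm, and Fgf8 (6.64 ± 0.90, adjusted p = 1.5e-05). Msgn1 (5.81 ± 1.46, adjusted p = 0.0036) and Nkx1-2 (5.73 ± 0.99, adjusted p = 0.00015) came next. The summed level of this list was 7.93 to 9.61 CPM in mESCs, 12.2 to 60.9 at 48 hr and 17.3 to 708 at 96 hr.

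Of 16 retinoic acid genes, 6 were higher at 96 hr than in mESCs. They were led by Cyp26a1 (5.85 ± 1.03, adjusted p = 0.00018), which breaks retinoic acid down, and Dhrs3 (3.40 ± 0.44, adjusted p = 7.7e-06), which lowers its precursor. Cyp26a1 at 96 hr was at 185 CPM in clone E14, at 48.6 in H9 and 19.7 in H7, and at 1.89 to 4.77 in the other 3. Of 12 genes of Polycomb repressive complex 2, which places the H3K27 methylation found over silent Hox clusters, 4 were lower and none higher: Eed (-1.60 ± 0.11, adjusted p = 1.1e-08), Epop (-1.52 ± 0.17, adjusted p = 1.8e-06), Mtf2 (-1.38 ± 0.16, adjusted p = 2.1e-06) and Phf19 (-1.20 ± 0.18, adjusted p = 4.8e-05). Of 20 genes of complex 1, 3 were higher: Phc2 (1.41), Cbx8 (1.26) and Cbx2 (1.06). These counts only describe the lists, beside 11.2% of all genes tested that were higher and 9.65% lower. The last list held 12 genes, those of trithorax and H3K27 demethylases together with Utf1. Of these, Kdm6b was higher (1.30 ± 0.14, adjusted p = 8.7e-07) and Ash2l lower (-1.07 ± 0.21, adjusted p = 0.00062).

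Of the 3 nearest protein-coding genes on each side of each cluster, 23 of 24 were tested and 2 were higher at 96 hr than in mESCs and 2 lower, beside 11.2% and 9.65% of all genes. Evx1, a homeobox gene next to Hoxa13, was higher by 4.89 ± 1.06 (adjusted p = 0.0012), with 51.2 CPM in clone E14, 31.4 in H9, 8.501 in H7 and 0.347 to 0.551 in the others. Skap1 was higher by 1.33 ± 0.45 (adjusted p = 0.023), and Calcoco2 (-3.22 ± 0.69, adjusted p = 0.001) and Ttll6 (-2.83 ± 0.47, adjusted p = 0.00011) were lower, all 3 beside Hoxb. Of 38 non-coding genes within the spans given above 10 were tested, and 2 were higher and 3 lower. The higher were Hoxb3os (6.23 ± 1.06, adjusted p = 0.00013), which overlaps Hoxb2 and Hoxb3, and Hoxaas2 (3.86 ± 1.04, adjusted p = 0.0058), which overlaps Hoxa3.

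The comparison of IκBα-KO with IκBα-WT mESCs asked whether loss of IκBα changed the Hox genes before differentiation. Over the 6 libraries 25 of the 38 members reached 10 counts, and 1, Hoxb4, was called higher and none lower, where 1.06% and 0.641% of all genes were. Hoxb4 was at 0.0339, 0.0656 and 0.0330 CPM in the IκBα-WT and 0.264, 0.270 and 0.191 in the IκBα-KO clones, so the groups did not overlap. It was higher by 2.35 ± 0.54 (adjusted p = 0.048). It had 4 counts in the IκBα-WT and 27 in the IκBα-KO libraries, so that it passed the filter through the IκBα-KO clones. The call was lost without any one library except IκBα-KO clone 2, that is without each IκBα-WT clone and without IκBα-KO clones 1 and 3, at log2 fold changes of 2.19 to 2.72 (adjusted p = 0.0914 to 0.196). At 2.35 or 2.36 it was also lost with all 18 libraries in the fit (adjusted p = 0.415), with an offset for each chromosome (adjusted p = 0.0548) and with no filter on low counts (adjusted p = 0.0533). An unadjusted p under 0.05 was found by edgeR for 8 of the 25, where 21.6% of all genes had one, and none of the 8 was lower. Of these 5, Hoxa9, Hoxb4, Hoxc6, Hoxd4 and Hoxd9, had 1 to 4 counts in the IκBα-WT libraries and passed the filter through the IκBα-KO clones, so the count is no support for a direction. Hoxc13 differed by 1.11 ± 0.32 (adjusted p = 0.090), with each IκBα-KO clone above each IκBα-WT clone. With no filter on low counts Hoxc13 was called (1.12, adjusted p = 0.0372). DESeq2's test also called it (adjusted p = 0.019), and gave no adjusted p for Hoxb4.

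The mean was higher in the IκBα-KO clones for 27 of the 38 members and lower for 9, and 2 were at 0 in both. Of the 25 tested members 21 had a log2 fold change above 0 and 4 below it, where the mean of 52.0% of all genes tested was higher. Members that passed the filter through the IκBα-KO clones are among the 21. Without IκBα-KO clone 2 the mean was higher for 26 of the 38. In 10 of the 38, Hoxa4, Hoxa5, Hoxa9, Hoxb4, Hoxc4, Hoxc6, Hoxc13, Hoxd4, Hoxd8 and Hoxd11, each IκBα-KO clone was above each IκBα-WT clone, and in 1 each was below. Of the 25 tested members 9 had no overlap with IκBα-KO higher, as Hoxd11 was not tested. Of all genes tested 15.1% had no overlap with IκBα-KO higher and 13.9% with IκBα-KO lower. Most of the 10 members named are at a few counts, and of them only Hoxc13 was over 1 CPM in each IκBα-KO clone. The IκBα-KO libraries were also the deeper ones, with 34107070 to 40904247 counts beside 29423089 to 31091857, and the part of depth in these low values was not tested. Spearman's rho between paralog group and log2 fold change was -0.04 over the 25 members.

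Some library-wide values moved with the genotype or with 1 clone. In IκBα-KO clone 2 the genes within 5 Mb on each side of Hoxc were higher by a median of 0.493 on the log2 scale (96 genes) and those of chromosome 15 as a whole by 0.522 (504 genes), while the other libraries were between -0.045 and 0.036 in that window. The windows around the other 3 clusters were within 0.073 of the IκBα-WT mean in each library. For Hoxc13 the difference was 0.91 (adjusted p = 0.078) with an offset for each chromosome and 0.74 (adjusted p = 0.051) without clone 2. Endoderm markers summed to 2.47 to 3.43 CPM in IκBα-WT clones and to 20.5, 2.82 and 27.99 CPM in IκBα-KO clones 1 to 3. Fibroblast markers were at 14.3 to 15.5 and 12.4 to 21.4 CPM. The part of these lists in the Hox values was not tested.

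**Figure D5:**
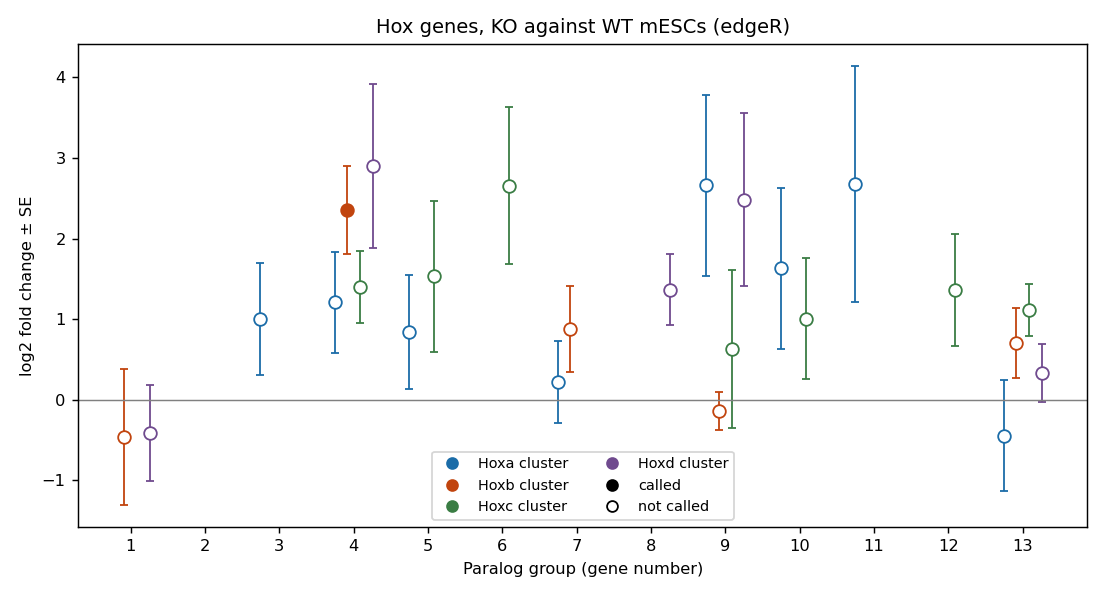
Log2 fold change of IκBα-KO against IκBα-WT mESCs with its standard error (vertical axis) for each of the 25 tested Hox genes by paralog group (horizontal axis), in a color for each cluster. Most points lie above 0 with wide errors, and Hoxb4 is the only member called (2.35 ± 0.54).

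Among the listed partners and regulators, few differed between genotypes in mESCs. Meis2 was higher in IκBα-KO mESCs (1.98 ± 0.44, adjusted p = 0.044), Cdx1, a caudal homeobox gene that acts upstream of Hox genes, was higher (1.70 ± 0.31, adjusted p = 0.024), and Wnt3 was lower (-1.80 ± 0.41, adjusted p = 0.045). The Polycomb gene Bmi1 was higher (1.55 ± 0.18, adjusted p = 0.0067), and of the flanking genes Calcoco2 was higher (1.16 ± 0.22, adjusted p = 0.030). No retinoic acid, complex 2, trithorax or tested non-coding cluster gene was called. Over all genes these calls came with 232 higher and 140 lower, and by edgeR there were 0 of either without IκBα-WT clone 2, where 3104 genes had an unadjusted p under 0.05.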

How the data were processed

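Bulk RNA of 18 samples was sequenced on an Illumina HiSeq as paired-end reads. The deposited values are raw counts per gene, made by the authors with Trim Galore (0.6.6), STAR (2.7.8, uniquely mapped reads) and featureCounts (Subread 2.0.1) over exons of GRCm38 with the Ensembl annotation; the strand setting is not given in the sources used here. A deposited table of variance-stabilized values (DESeq2 1.38.3) was not used. Library totals were 28287582 to 40904247 counts, and no 2 libraries of a stage agreed within counting noise (lowest chi-square per degree of freedom 5.47). Intervals and floors cover counting error only, and p-values measure the spread between clones.

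CPM were computed with edgeR (4.0.16, R 4.3.3) on TMM-scaled totals, and CPM per kilobase with the union of exon lengths. edgeR's quasi-likelihood test with robust dispersion was fitted on every gene that reached 10 counts summed over the fitted libraries, with Benjamini-Hochberg adjustment over all of them. The stage comparisons used all 18 libraries with stage as the only term, and IκBα-KO against IκBα-WT used the 6 mESC libraries with genotype as the only term. Calls were made below an adjusted p of 0.05 where the log2 fold change passed 1 in size. Standard errors were taken from the fold change and its F statistic. The fits were tested on simulated data. Alternatives were DESeq2 (1.42.0), limma voom (3.58.1), other filters and scalings, blocks, chromosome offsets and leaving out each library.

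The EB columns carry clone codes with no genotype, so IκBα-KO and IκBα-WT EBs were not compared. Clone codes paired the 48 hr and 96 hr libraries, with correlations of their deviations from the stage means of 0.396 to 0.734 over 13177 genes for the 6 codes. Values per library are given for members with a median of at least 1 CPM in a stage, those called between genotypes and the first and last gene of each cluster (9 members), and for others chosen after their values were seen. Hoxb4 at 48 hr is given as a range. From each other list up to 4 called genes with the largest change are named. 1 member and 1 gene of a list are not reported here, and counts leave them out. The members and lists were chosen with earlier results of these data known. Promoter windows came from RefSeq (GRCm38.p6).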

Additional observations from a re-analysis of the deposited data

Results flagged for a closer look

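The values of each member, of the cluster sums and of the sums over paralog groups were compared among the 6 libraries of each EB stage, in 67 groups of values with at least 10 counts. In 24 of them the highest library stood apart from the rest by Dixon's test at the 95% level. Chance flags about 1 in 20 of normally distributed values, a rate that need not hold for low counts like these. The mESC groups, with 3 samples each, were not tested. The values are in CPM, and the members share libraries, so the flags are not independent.

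At 96 hr 17 of the 19 flagged values were those of clone E14. In groups 2 to 6 they were Hoxb2 at 7.26, Hoxb3 at 3.83, Hoxd3 at 0.577, Hoxb4 at 1.18, Hoxb5 at 1.23 and Hoxb6 at 0.603. Hoxd1 was at 2.65, Hoxb8 at 0.577 and Hoxd8 at 1.52. Hoxa9 was at 0.367, Hoxc9 at 0.236, Hoxd9 at 1.68 and Hoxa13 at 0.472. The Hoxb cluster summed to 24.7 in this library, the Hoxd cluster to 7.68, groups 1 to 3 to 24.96 and groups 4 to 8 to 6.42. The other flagged values at 96 hr were those of clone E3 in Hoxc4 at 0.577 and Hoxc13 at 1.55.

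At 48 hr 5 values were flagged. Clone E3 was high in Hoxc13 at 1.49, as was its Hoxc cluster sum at 2.03. Clone E2 was high in Hoxb13 at 0.640 and Hoxd10 at 0.202, and clone H9 in Hoxb6 at 0.259.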

How the results depend on the processing

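Low counts limit most members, which lie under 1 CPM. Over the called members and the others given with a fold change, 523 values under alternative settings kept their direction and side of the threshold, 84 lost the call and 19 gained it, and in 0 the direction reversed. For 48 hr EBs against mESCs, 3 members were higher and the count was 5 by DESeq2's Wald test, 8 with the 2 stages alone and 10 by voom, with 2 to 5 when a library was left out. For 96 hr against 48 hr, 2 were higher and the count was 4 by DESeq2, 0 with the 2 stages alone or by voom, 4 with the clone code as replicate block, and 0 to 6 when a library was left out. Voom called 6 lower in place of 3. For 96 hr EBs against mESCs, 10 were higher and 5 lower, 3 and 3 after edgeR's filterByExpr, which tests fewer genes, and 6 to 10 were higher when a library was left out. For IκBα-KO against IκBα-WT mESCs, 1 was higher (Hoxb4). DESeq2 also called 1, but this was Hoxc13, and it gave Hoxb4 no adjusted p. The count was 0 after filterByExpr, with all 18 libraries in the fit, with chromosome offsets and with the replicate number as a replicate block (Hoxb4 adjusted p = 0.105), and 0 or 1 when a library was left out. The same-numbered mESC clones did not deviate together (r of -0.117, -0.008 and -0.028), so the numbers pair nothing. DESeq2 gave no adjusted p for 3 to 7 members in the stage comparisons and 19 between genotypes, and these count neither as kept nor as lost. Counts over all genes are given above for most of the settings of the stage comparisons. The cause of the changes was not tested.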

Other observations

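The 96 hr libraries fell into separate sets by their streak and mesoderm markers, whose sum was 24.7 CPM in clone D4, 25.6 in E2, 16.5 in E3, 1028 in E14, 684 in H7 and 1065 in H9. The genotype of these columns is not given by their names. The summed CPM of the 38 Hox genes in the same order was 5.203, 4.52, 9.104, 37.02, 8.02 and 11.4. The number of members above each of the 6 mESC libraries was 7, 5, 10, 20, 12 and 7. The number below each of them was 9, 10, 6, 7, 10 and 9. The share over all genes was not computed, so such counts describe the members only. At 48 hr the streak and mesoderm sum was 17.04, 15.3, 9.15, 75.0, 13.1 and 19.9 CPM. The Hox sum at 48 hr was 6.02, 7.85, 9.28, 11.2, 9.64 and 9.88 CPM. Above each mESC library were 7, 11, 7, 14, 13 and 14 members, and below each 8, 6, 5, 6, 5 and 6. The 96 hr library of clone E14 was the only one in which Hoxd8 and Hoxd9, at 1.52 and 1.68 CPM, exceeded 1 CPM. In that library Kdr, a receptor of blood and endothelial precursors, was at 315 CPM, beside 0.420 to 24.7 in the other 5, and Sox17, an endoderm factor, at 38.3, beside 0.262 to 7.996.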
